A study of Mus musculus with 6 samples.

Results

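The natriuretic peptide system was followed at the transcript level in left ventricles of mice that lack nuclear receptor corepressor 1 (NCoR1) in cardiomyocytes. The 8 genes described were chosen by name and role from the 17121 genes of the count table, and all 8 were among the 13040 genes with enough reads to be tested. They are the ligand genes Nppa and Nppb, the processing enzymes Corin and Furin, the guanylyl cyclase receptors Npr1 and Npr2, the clearance receptor Npr3 and the degrading enzyme Mme. RNA-seq was performed on 3 littermate control (LC) mice, numbered 15, 25 and 26, and on 3 cardiomyocyte-specific NCoR1 knockout (CMNKO) mice, numbered 16, 17 and 18. All mice were 2 months old, had no treatment named in the labels and were on a C57BL/6 background (C57BL6/J in the methods of the study), and each gave 1 library. CMNKO mice came from a cross of floxed NCoR1 mice with mice that carry Cre under the αMHC promoter, which is active in cardiomyocytes, so that the other cells of the ventricle keep the gene. The alleles of the LC mice were not given in the sources used here. At issue is how these genes differ between the genotypes.

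Atrial natriuretic peptide, from Nppa, and B-type natriuretic peptide, from Nppb, are hormones of the heart that promote salt excretion and relax vessels. Both are made as propeptides, which corin and furin cut into the active hormones. The peptides bind the receptor encoded by Npr1, which makes cyclic GMP, whereas the receptor of Npr2 prefers C-type natriuretic peptide and the receptor of Npr3 takes the peptides up for breakdown. Ventricles express Nppa and Nppb strongly in fetal life, lower them after birth and raise them again under load, so that both are counted among the fetal genes.

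Total counts ranged from 6319488 to 8752609 per mouse. Levels are given as CPM, each count set against the total of its library, after scaling of the libraries by the TMM method of edgeR, and levels of different genes are compared only as CPM per kilobase of the longest GENCODE transcript. As a check of the labels, Ncor1 transcripts averaged 101.1 ± 9.97 CPM in the controls and 48.1 ± 4.89 CPM in the knockout (SD, n = 3 mice each), a change of -1.07 on the log2 scale (SE 0.13, adjusted p = 0.00845 by the quasi-likelihood test of edgeR, Benjamini-Hochberg adjusted). The numbers of the libraries form 2 series, with LC 25 and LC 26 in the second and the other 4 libraries in the first. LC 25 and LC 26 also stood apart on the first principal component, which held 48.7% of the variance, and had 36.1% and 32.8% of their counts from mitochondrially encoded genes against 26.3% to 27.9% in the others. Fitting the series as a term therefore leaves LC 15 as the only control, and without LC 15 genotype and series cannot be told apart. The adipocyte genes Adipoq, Cidec, Plin1 and Retn summed to 40 counts in CMNKO 16 and 22 in CMNKO 17, and to 0 to 2 counts in the other 4 mice, so that values for CMNKO 18 alone are given where they differ.

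Nppa was higher in every CMNKO mouse than in any LC mouse, without reaching the adjusted threshold, and the groups overlapped in the other 7 genes. Of the 8 genes, 5 were higher and 3 lower in CMNKO mice, with a median log2 fold change of 0.16, against 0.0012 over all genes tested. By edgeR 0 of the 8 passed an adjusted p of 0.05, against 0.606% of all genes, and 1, Nppa, had an unadjusted p under 0.05, against 18.9% of all genes. DESeq2 and limma-voom each called 1 of the 8, which was Nppa, against 3.05% and 0.721% of all genes. In a bulk sample, fewer cells of a type and less RNA per cell cannot be told apart.

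**Figure D1:**
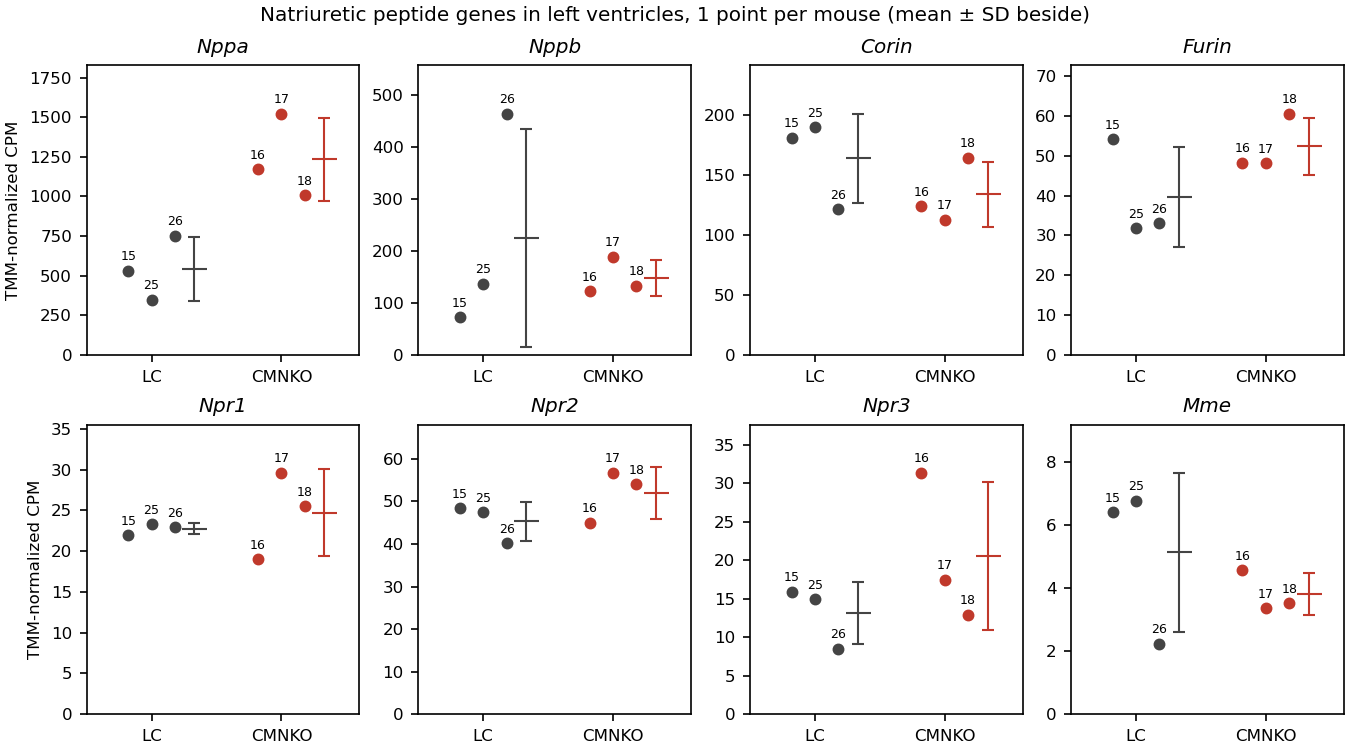
TMM-normalized CPM (linear axes from 0) of the 8 genes in each of the 3 LC mice (grey) and 3 CMNKO mice (red), numbered as in the text, with the mean ± SD beside the points. Nppa is the gene in which the groups do not overlap, and the LC values of Nppb spread from 72.4 to 465.2 CPM.

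The ligand genes lie side by side on mouse chromosome 4 and are transcribed in the same direction. Their proximal promoters are shown as a description, and a link between these sequences and the transcript levels was not tested. With all mice in the fit, the log2 fold change was 1.18 for Nppa and -0.60 for Nppb. Against LC 15 alone, within the first library series, the values were 1.22 and 1.03, as described below. The 250 bases before the RefSeq start of each gene are given for build GRCm38.p6, plus strand, at chr4:148000472-148000721 for Nppa and chr4:147985650-147985899 for Nppb, with GATA, NKX2-5 and TATA matches in capitals.
Nppa promoter: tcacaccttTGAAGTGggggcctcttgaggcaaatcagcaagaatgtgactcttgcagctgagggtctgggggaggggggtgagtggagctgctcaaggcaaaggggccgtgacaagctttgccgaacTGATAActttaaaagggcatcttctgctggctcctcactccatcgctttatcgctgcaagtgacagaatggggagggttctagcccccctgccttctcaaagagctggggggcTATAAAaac
Nppb promoter: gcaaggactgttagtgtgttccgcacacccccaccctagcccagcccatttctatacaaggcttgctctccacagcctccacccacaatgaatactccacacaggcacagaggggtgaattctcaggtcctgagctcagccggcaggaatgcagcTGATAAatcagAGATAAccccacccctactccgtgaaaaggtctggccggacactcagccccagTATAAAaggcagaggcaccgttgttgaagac

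A GATA motif (AGATAA or AGATAG, or else TGATAA or TGATAG, on either strand) was found once before Nppa, 122 to 117 bases before the start, and 2 times before Nppb, at 95 to 90 and 84 to 79 bases. Such a motif was present in 26.5% of 32851 mouse promoter windows of this length. An NKX2-5 motif (TNAAGTG, either strand) matched before Nppa, at 241 to 235 bases, and is held by 10.1% of windows. TATAAA on the plus strand matched 9 to 4 bases before the RefSeq start of Nppa and 31 to 26 bases before that of Nppb, and is held by 7.59% of windows. The MCAT motif of TEAD factors (CATTCC, either strand) matched before Nppb, at 105 to 100 bases, as GGAATG on the plus strand, and is held by 12.6% of windows. No match was found in either window for AP-1 (TGACTCA or TGAGTCA), MEF2 or the CArG box, which 4.46%, 2.92% and 1.47% of windows hold. Bases farther from the start were not searched, so that sites for these factors elsewhere near the genes are not covered. None of the matches overlapped another, and they describe letters in a window, not measured binding sites.

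Nppa encodes the precursor of atrial natriuretic peptide. It had 530.0, 349.3 and 752.1 CPM in LC mice 15, 25 and 26, and 1173, 1523 and 1006 CPM in CMNKO mice 16, 17 and 18. Every CMNKO mouse lay above every LC mouse, as was the case for 11.2% of all genes. The means were 543.8 ± 201.7 CPM in LC and 1234 ± 263.8 CPM in CMNKO mice (SD, n = 3 mice each), a 2.27-fold difference (95% interval 1.55 to 3.32) or 1.18 on the log2 scale (SE 0.25). The unadjusted p was 6.3e-04 and the adjusted p 0.0672 by the quasi-likelihood test of edgeR, Benjamini-Hochberg adjusted. The difference was 1.22 on the log2 scale against LC 15 alone, within the first library series, with an adjusted p of 0.0239 by edgeR, where 0.372% of genes passed. With the series as a term in the fit of all 6 mice it was again 1.22, and the adjusted p 0.315 by edgeR, where 0.169% of genes passed. Without LC 15 or without LC 26 the gene passed the test (log2 fold change 1.16 and 1.49, adjusted p = 0.0118 and 0.0401 by edgeR, in fits that called 19.4% and 0.189% of all genes), and in CMNKO 18 alone it stood at 0.89 (adjusted p = 0.766 by edgeR). An annotated antisense gene overlaps Nppa, and the strand setting of the counting was not given in the sources used here, so that reads of the 2 cannot be told apart.

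Nppa is far higher in atria than in ventricles, so the atrial markers were read beside it. Myl7, the atrial myosin light chain, had 0 or 1 count in every mouse, namely 1 in LC 26, 1 in CMNKO 18 and 0 in the other 4. Of 10 listed atrial markers, 7 were in the count table. They summed to 205.8 to 270.2 CPM in LC mice and 205.4 to 247.6 CPM in CMNKO mice, so that the groups overlapped. Most of this sum was Kcnk3 (means 157.4 CPM in LC and 152.4 CPM in CMNKO mice) and Kcnj3 (60.5 and 46.7 CPM). The sum therefore says little about the other markers. Of the 6 tested, 2 were higher and 4 lower, with Nr2f2 at 0.55 and Myl4 at -0.50 on the log2 scale. None of the 6 atrial markers tested passed the test by edgeR, and 1 had an unadjusted p under 0.05, against 18.9% of all genes. That marker was Dkk3, with 9, 6 and 6 counts in LC mice and 59, 25 and 21 in CMNKO mice (adjusted p = 0.0691 by edgeR), and its part in the Nppa result was not tested.

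Nppb, which encodes the precursor of B-type natriuretic peptide, did not follow Nppa when all mice were compared. It had 72.4, 137.1 and 465.2 CPM in LC mice 15, 25 and 26, and 122.8, 188.9 and 133.2 CPM in CMNKO mice 16, 17 and 18. LC 26 was the highest and LC 15 the lowest of all 6 mice, and the CMNKO mice lay between them. The mean was 224.9 ± 210.6 CPM in LC and 148.3 ± 35.5 CPM (SD, n = 3 mice each), which put the log2 fold change at -0.60 with a 95% interval of -1.71 to 0.51 (adjusted p = 0.521 by the quasi-likelihood test of edgeR, Benjamini-Hochberg adjusted). The direction turned without LC 26, to 0.50, and against LC 15 alone, to 1.03 (adjusted p = 0.513 and 0.0664 by edgeR).

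The spread of Nppb among LC mice was extreme for this data set. The highest LC mouse had 6.43 times the lowest, against 1.54 times among CMNKO mice. The SD of log2 CPM was 1.36 in LC mice, larger than that of 99.9% of the 8111 genes with a mean of at least 10 CPM, whose median SD was 0.21. Among CMNKO mice the SD was 0.33, larger than that of 95.2% of these genes (median 0.13). Counting noise was a small part of this spread, since the counts of Nppb ran from 464 to 3549 in LC mice and the dispersion index (variance over that of Poisson counting, where 1 means counting noise alone) was 1318 in LC and 66.2 in CMNKO mice. Nppa also varied more than most genes, with an SD above that of 95.1% of genes in LC and 93.2% in CMNKO mice.

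The ratio of the 2 ligand transcripts within a library does not depend on its scaling. The ratio of Nppa to Nppb counts was 7.32, 2.55 and 1.62 in LC mice 15, 25 and 26, and 9.54, 8.06 and 7.55 in CMNKO mice 16, 17 and 18. All CMNKO mice lay above all LC mice, but LC 15 was close to the CMNKO mice and LC 25 and LC 26 were far below. The mean log2 ratio was 1.64 ± 1.12 in LC and 3.06 ± 0.17 in CMNKO mice (SD, n = 3 mice each), a difference of 1.42 (exact permutation test, two-sided, p = 0.1, the smallest p that 3 against 3 mice allow). Against LC 15 alone, within the first library series, the difference was 0.19.

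**Figure D2:**
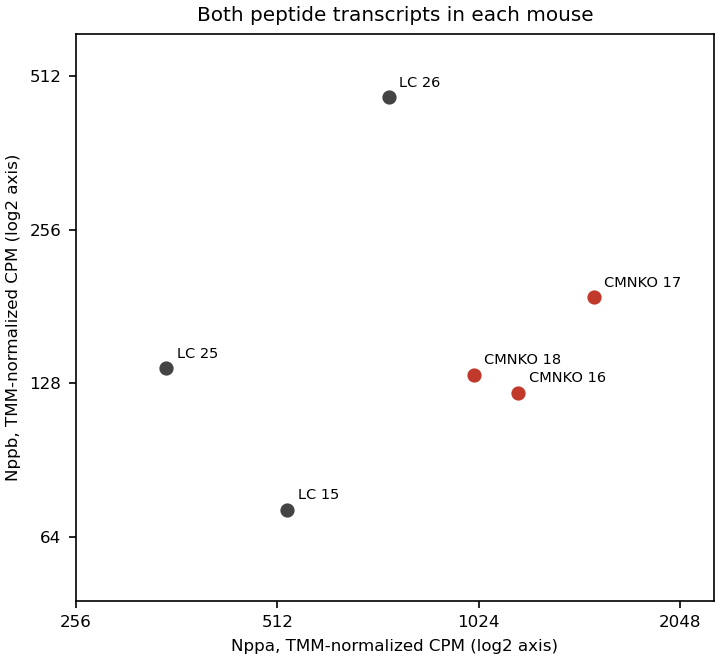
TMM-normalized CPM of Nppa (x axis) and Nppb (y axis), both on log2 axes, 1 point per mouse (grey, LC, red, CMNKO). The CMNKO mice sit at 1006 to 1523 CPM of Nppa with Nppb within 122.8 to 188.9 CPM, whereas the LC mice differ 6.43-fold in Nppb.

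The genes with profiles most like those of the ligands differed between Nppa and Nppb. Likeness was measured as the root mean square distance between log2 CPM profiles centred on their means over the 6 mice, among genes with a mean of at least 10 CPM. Of the 5 genes nearest to Nppa, 4 are given here, namely Cyr61 (a secreted matricellular protein, distance 0.26), Rrp12 (a ribosome biogenesis factor, 0.28), Metrn (meteorin, 0.28) and Jun (an AP-1 subunit, 0.28), where the median gene was at 0.74. Of these 4, Rrp12 passed the test between genotypes (log2 fold change 1.16, adjusted p = 0.0207 by edgeR), and Cyr61, Metrn and Jun had adjusted p of 0.0555 to 0.0888 by edgeR. The 5 genes nearest to Nppb were Adam19 (a metalloprotease, 0.42), Clock (a circadian transcription factor, 0.45), Nrn1 (neuritin, 0.46), Pfkfb2 (a regulator of glycolysis, 0.46) and Tnfrsf12a (the TWEAK receptor, 0.47), where the median gene was at 0.83. All 5 peaked in LC 26, like Nppb. Nppb itself was at a distance of 0.96 from Nppa, rank 7820 among these genes, and Furin was the nearest to Nppa of the 6 other members that reached 10 CPM (0.61, rank 1242). With 6 mice in 2 library series, these distances are a description and carry no test. The genes named were picked by likeness in these same mice. Their genotype p-values and their peaks in LC 26 therefore follow from the choice and are no support.

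**Figure D3:**
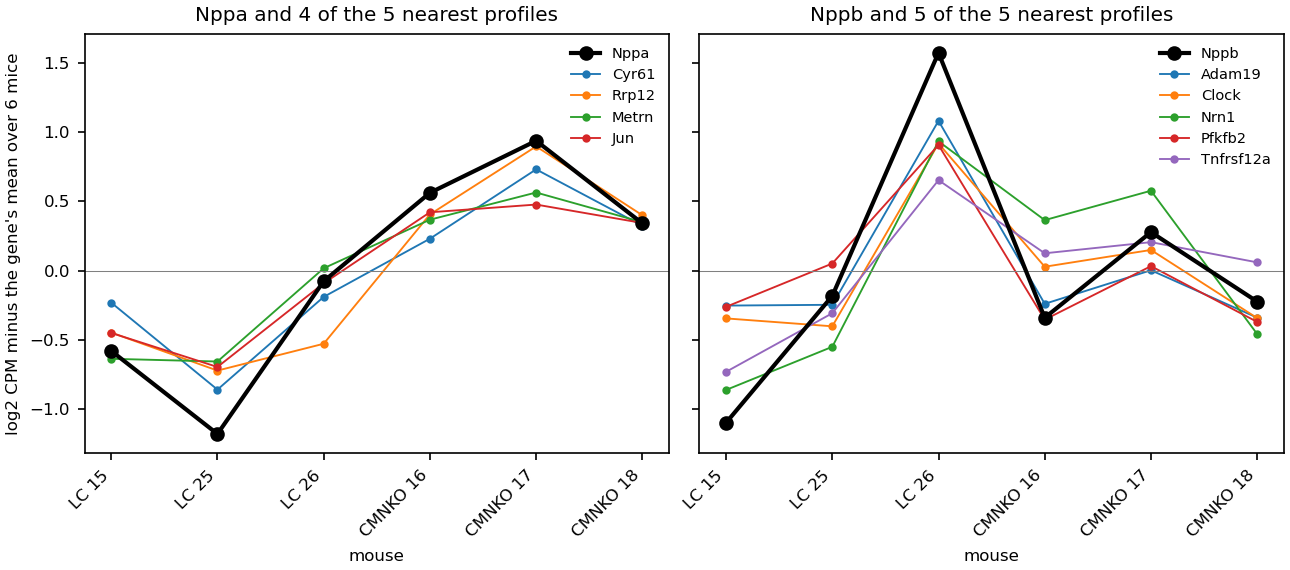
Log2 CPM of each mouse minus the gene's mean over the 6 mice, for Nppa and 4 of its 5 nearest genes (left) and Nppb and its 5 nearest genes (right), with lines joining the values of a gene only to guide the eye. The Nppa group is higher in the 3 CMNKO mice, and the Nppb group peaks in LC 26, as follows from the choice by likeness.

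The genes given here that lie close to the ligand pair had smaller fold changes than Nppa. In the RefSeq order, Mfn2, Plod1 and 2510039O18Rik lie on the side of Nppb, and Clcn6 and Agtrap on the side of Nppa. Their log2 fold changes were 0.42, 0.58 and 0.27 on the side of Nppb and 0.19 and 0.22 on the side of Nppa, all above 0 and all below that of Nppa. None of these 5 passed the test (adjusted p = 0.160 to 0.645 by edgeR), where 0.606% of all genes passed. Of the 5, 1 had an unadjusted p under 0.05, against 18.9% of all genes, namely Plod1, a collagen lysyl hydroxylase (0.0125 by edgeR).

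Corin, a transmembrane serine protease of cardiomyocytes, cuts the Nppa propeptide. It had 180.9, 189.4 and 121.3 CPM in LC mice 15, 25 and 26, and 123.8, 112.6 and 164.2 CPM in CMNKO mice 16, 17 and 18. The groups overlapped, with LC 26 among the CMNKO values and CMNKO 18 near the LC values. The means were 163.9 ± 37.1 and 133.6 ± 27.1 CPM (SD, n = 3 mice each), which put the log2 fold change at -0.29 with a 95% interval of -0.72 to 0.13 (adjusted p = 0.413 by the quasi-likelihood test of edgeR, Benjamini-Hochberg adjusted). This interval ends below the lower bound of the Nppa interval, 0.63 on the log2 scale. The mouse with the most Nppa and Nppb in each genotype, LC 26 and CMNKO 17, had the least Corin of its genotype. The summed level of the 10 cardiomyocyte markers was 58767 to 74533 CPM in LC mice and 64490 to 69136 CPM in CMNKO mice. Myh6 was the largest part of this sum in every mouse. Of the 10 markers 6 were higher and 4 lower, from -0.58 for Tnnt2 to 0.40 for Actn2 on the log2 scale. None passed the test by edgeR, and 4 had an unadjusted p under 0.05, against 18.9% of all genes.

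Furin, a proprotein convertase of the secretory pathway found in most cells, can cut the Nppb propeptide. It had 54.1, 31.9 and 33.04 CPM in LC mice 15, 25 and 26, and 48.2, 48.2 and 60.6 CPM in CMNKO mice 16, 17 and 18. LC 15 lay within the CMNKO values, whereas LC 25 and LC 26 lay below all of them. The means were 39.7 ± 12.5 and 52.4 ± 7.17 CPM (SD, n = 3 mice each), which put the log2 fold change at 0.40 with a 95% interval of -0.043 to 0.85 (adjusted p = 0.301 by the quasi-likelihood test of edgeR, Benjamini-Hochberg adjusted). Without LC 15 Furin was called, at 0.69 (adjusted p = 0.00785 by edgeR, where 19.4% of genes were called), and against LC 15 alone it was at -0.048 (adjusted p = 0.972 by edgeR).

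Pcsk6, the convertase that activates corin, was singled out after its values were seen because it split as Furin did. It had 58.8, 29.6 and 22.8 CPM in LC mice 15, 25 and 26, and 60.0, 50.02 and 60.4 CPM in CMNKO mice 16, 17 and 18. LC 15 again lay within the CMNKO values. The log2 fold change was 0.62 with all mice (adjusted p = 0.259 by edgeR) and -0.048 with the series as a term (adjusted p = 0.983 by edgeR).

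Npr1 encodes the guanylyl cyclase receptor of both hormones. It had 21.99, 23.3 and 22.9 CPM in LC mice 15, 25 and 26, and 19.0, 29.6 and 25.5 CPM in CMNKO mice 16, 17 and 18. The LC mice were nearly level and lay inside the CMNKO range. The means were 22.8 ± 0.69 and 24.7 ± 5.35 CPM (SD, n = 3 mice each), which put the log2 fold change at 0.11 with a 95% interval of -0.27 to 0.50 (adjusted p = 0.736 by the quasi-likelihood test of edgeR, Benjamini-Hochberg adjusted). The spread of Npr1 went the other way from that of Nppb. Its SD among LC mice exceeded that of only 3.24% of genes, with a dispersion index of 0.13, and its SD among CMNKO mice exceeded that of 94.8%, with an index of 9.59.

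Npr2 encodes the guanylyl cyclase receptor of C-type natriuretic peptide. It had 48.4, 47.5 and 40.1 CPM in LC mice 15, 25 and 26, and 45.02, 56.7 and 54.0 CPM in CMNKO mice 16, 17 and 18. CMNKO 17 and CMNKO 18 lay above the LC mice and CMNKO 16 among them. The means were 45.3 ± 4.52 and 51.9 ± 6.13 CPM (SD, n = 3 mice each), which put the log2 fold change at 0.20 with a 95% interval of -0.11 to 0.51 (adjusted p = 0.453 by the quasi-likelihood test of edgeR, Benjamini-Hochberg adjusted). With genotype as the only term, the intervals of Npr1 and Npr2 both end at or below 0.51 on the log2 scale, below the lower bound of 0.63 for Nppa. With the series as a term the lower bound for Nppa was 0.46. The intervals of Npr1 (-0.35 to 0.67) and Npr2 (-0.28 to 0.49) then overlapped that of Nppa.

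Npr3 encodes the clearance receptor, which lacks a guanylyl cyclase domain and in the heart marks the endocardium. It had 15.9, 14.96 and 8.52 CPM in LC mice 15, 25 and 26, and 31.4, 17.5 and 12.9 CPM in CMNKO mice 16, 17 and 18. CMNKO 16 stood well above the other 5 mice, which overlapped. The means were 13.1 ± 4.02 and 20.6 ± 9.59 CPM (SD, n = 3 mice each), which put the log2 fold change at 0.66 with a 95% interval of -0.043 to 1.37 (adjusted p = 0.288 by the quasi-likelihood test of edgeR, Benjamini-Hochberg adjusted). Without CMNKO 16 the difference was 0.22, and in CMNKO 18 alone it was -0.014 (adjusted p = 0.725 and 0.996 by edgeR).

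Other markers of the endocardium were read beside Npr3. Without Npr3, 6 endocardial markers summed to 72.1, 42.3 and 32.5 CPM in LC mice 15, 25 and 26, and to 102.5, 73.9 and 75.6 CPM in CMNKO mice 16, 17 and 18. CMNKO 16 was the highest here as well, and none of the 6 was at 0 in all mice. Vwf was the largest part of the sum in every mouse, from 12.98 CPM in LC 26 to 53.4 CPM in CMNKO 16. All 6 had a fold change above 0, with a median of 0.57 on the log2 scale, 0 passed the test by edgeR and 3 had an unadjusted p under 0.05, against 18.9% of all genes. With the series as a term the median was 0.39. Plvap moved from 1.28 to 0.57, Vwf from 0.95 to 0.21, Nfatc1 from 0.39 to -0.10 and Cytl1 from 0.68 to 0.39. Tmem108 moved from 0.45 to 0.39, and Cdh11 went the other way, from 0.42 to 0.63. Of 10 endothelial markers tested, 9 were higher and 1 lower, with a median of 0.35, and 0.30 with the series as a term. By edgeR 0 of these 10 passed the test and 6 had an unadjusted p under 0.05, against 18.9% of all genes. The 10 fibroblast markers summed to 1082 to 1917 CPM in LC mice and 1695 to 2500 CPM in CMNKO mice, with CMNKO 16 again the highest. The part of these cells in the Npr3 level was not tested.

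The ratio of Npr3 to Npr1 counts, of the clearance receptor to the cyclase receptor, did not separate the genotypes. It was 0.72, 0.64 and 0.37 in LC mice 15, 25 and 26, and 1.65, 0.59 and 0.51 in CMNKO mice 16, 17 and 18. CMNKO 16 was the only mouse with more Npr3 than Npr1 counts, and the other 5 overlapped. The mean log2 ratio differed by 0.50 (exact permutation test, two-sided, p = 0.6, smallest possible p 0.1, n = 3 and 3 mice), and by -0.026 without CMNKO 16.

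Mme encodes neprilysin, the membrane protease that degrades the circulating peptides. It was the lowest of the 8 genes, with 6.40, 6.76 and 2.23 CPM in LC mice 15, 25 and 26, and 4.56, 3.35 and 3.52 CPM in CMNKO mice 16, 17 and 18. The CMNKO mice lay between LC 26 and the other LC mice. The low LC 26 value rested on 17 counts, whose exact Poisson 95% interval of 9.90 to 27.2 counts covers counting error only, against 41 and 42 counts in LC 15 and LC 25. The log2 fold change was -0.40 with a 95% interval of -1.21 to 0.42 (n = 3 and 3 mice, adjusted p = 0.570 by the quasi-likelihood test of edgeR, Benjamini-Hochberg adjusted), so that CMNKO levels of 0.433 to 1.34 times the LC level lie within the interval.

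Per kilobase of transcript, the order of the 8 levels was the same in both genotypes. In LC mice the means were 628.7 CPM per kilobase for Nppa, 288.0 for Nppb, 33.7 for Corin, 12.4 for Npr2, 6.92 for Furin, 5.596 for Npr1, 1.91 for Npr3 and 0.638 for Mme. In CMNKO mice they were 1426, 189.9, 27.5, 14.2, 9.13, 6.08, 2.99 and 0.474 in that order. Nppa and Nppb overlapped between LC mice, since Nppb in LC 26 (595.7 CPM per kilobase) exceeded Nppa in LC 25 (403.8), although Nppa was above Nppb within each mouse. Furin and Npr1 also overlapped in LC mice (5.55 to 9.44 against 5.41 to 5.74 CPM per kilobase), and the values of the other neighbours in the order did not overlap within a genotype. Among the receptors, the order was Npr2, Npr1 and Npr3.

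Read across the genes, single mice carried much of the variation. LC 26 had the highest Nppb of all mice and the lowest Npr2, Npr3 and Mme. CMNKO 17 had the highest Nppa, Npr1 and Npr2 of all mice and the highest Nppb among CMNKO mice, and CMNKO 16 had the highest Npr3. The dispersion index was above 2 in 7 of the 8 genes in LC mice, Npr1 being the exception, and in 7 of the 8 in CMNKO mice, Mme being the exception.

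**Figure D4:**
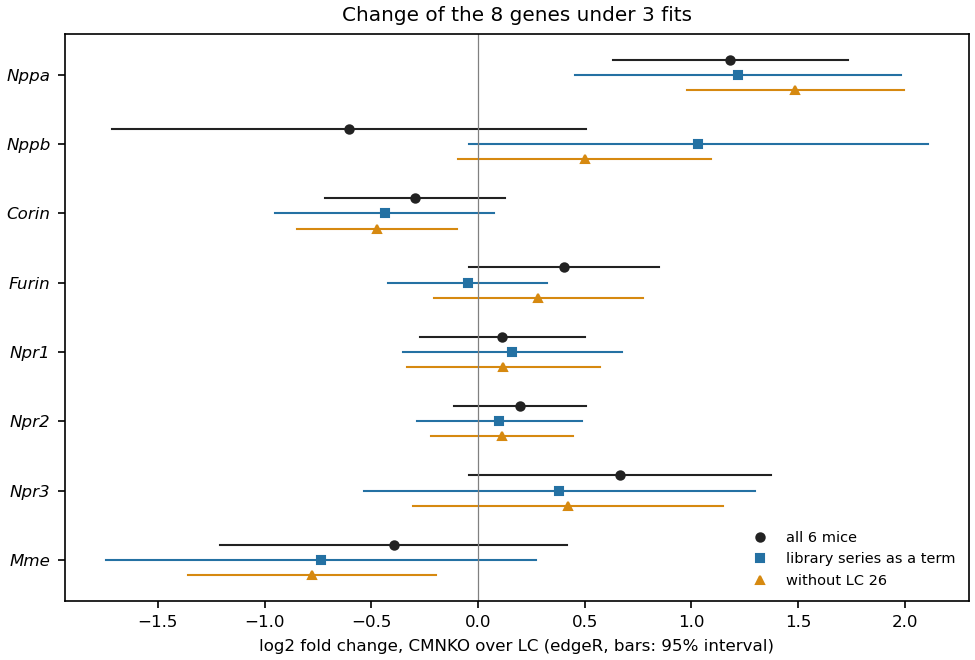
Log2 fold change, CMNKO over LC, with 95% intervals by edgeR for the 8 genes in all 6 mice (black), with the library series as a term (blue) and without LC 26 (orange). Nppa stays above 0 in all 3 fits, at 1.18, 1.22 and 1.49, whereas Nppb moves from -0.60 to 1.03 and 0.50, and Furin from 0.40 to -0.048 with the series term.

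The wider pathway, from peptide breakdown to the making, sensing and breakdown of cyclic GMP, was read from a list of 36 gene symbols, of which 25 were tested. By edgeR 0 rose and 1 fell at an adjusted p of 0.05, 16 were higher and 9 lower, and 9 of the 25 had an unadjusted p under 0.05, against 18.9% of all genes. The median log2 fold change was 0.073, against 0.0012 over all genes, and the background of calls was 0.268% higher and 0.337% lower. The groups did not overlap in 4 of the 25, against 23.6% of all genes. Nppc, the gene of C-type natriuretic peptide, and Ostn, the gene of musclin, were not analysed here.

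Pde1c, a calmodulin-dependent phosphodiesterase that breaks down cyclic AMP and cyclic GMP, was the pathway gene that fell. It had 61.9, 58.2 and 72.2 CPM in LC mice 15, 25 and 26, and 30.2, 29.1 and 34.9 CPM in CMNKO mice 16, 17 and 18. All CMNKO mice lay far below all LC mice, LC 15 included, where 12.3% of all genes had every CMNKO mouse below every LC mouse. The log2 fold change was -1.03 (SE 0.14, 3 mice each, adjusted p = 0.0111 by the quasi-likelihood test of edgeR, Benjamini-Hochberg adjusted). With the series as a term it was -0.98 (adjusted p = 0.0487 by edgeR), so that Pde1c passed in both fits. Its call was lost in each fit that left out 1 CMNKO mouse.

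The pathway genes with the next smallest p did not pass. Prkg1, the cyclic GMP-dependent protein kinase, was at 0.62 on the log2 scale (adjusted p = 0.156 by edgeR), with 12.01, 14.5 and 9.04 CPM in LC and 21.2, 17.7 and 15.3 CPM in CMNKO mice. Every CMNKO mouse lay above every LC mouse, as was the case for 11.2% of all genes. Ece1, the endothelin-converting enzyme, was at 0.81 (adjusted p = 0.167 by edgeR) with all mice and at 0.11 with the series as a term. Ppp1r12b, a regulatory subunit of myosin phosphatase, was at 0.50, and Mrvi1, a substrate of the kinase of Prkg1, at 0.57 (adjusted p = 0.177 and 0.219 by edgeR). With the series as a term Ppp1r12b was at 0.19 and Mrvi1 at 0.17, whereas Prkg1 was at 0.59. The other phosphodiesterases of the list, Pde1a, Pde2a, Pde3a, Pde3b, Pde5a, Pde9a and Pde10a, ranged from -0.33 to 0.56, with adjusted p of 0.257 to 0.909 by edgeR.

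**Figure D5:**
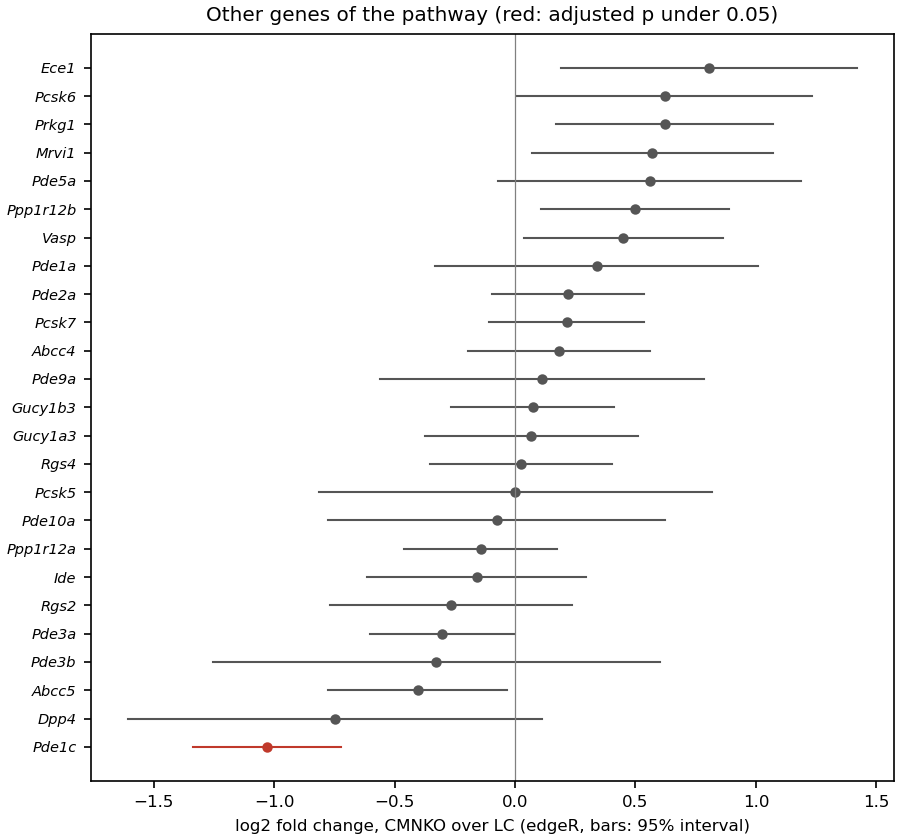
Log2 fold change, CMNKO over LC, with 95% intervals by edgeR for the 25 other pathway genes tested in 3 LC and 3 CMNKO mice, ordered by fold change. Pde1c, in red, is the gene that passed an adjusted p of 0.05, at -1.03.

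Transcription factors and cofactors known to act on Nppa or Nppb in the heart were read from a list of 24 genes, of which 23 were tested. By edgeR 0 rose and 1 fell, against 0.268% and 0.337% of all genes. Of the 23, 15 were higher and 8 lower, and 5 had an unadjusted p under 0.05, against 18.9% of all genes. The median log2 fold change was 0.087 against 0.0012 over all genes, and -0.086 with the series as a term. The groups did not overlap in 5 of the 23, against 23.6% of all genes. The gene that fell was Hopx, a homeodomain protein that does not bind DNA and restrains serum response factor. It had 341.1, 403.7 and 455.9 CPM in LC mice 15, 25 and 26, and 168.8, 171.2 and 175.9 CPM in CMNKO mice 16, 17 and 18. The CMNKO mice were nearly level, and all of them lay below the lowest LC mouse. The log2 fold change was -1.22 (SE 0.14, 3 mice each, adjusted p = 0.00845 by the quasi-likelihood test of edgeR, Benjamini-Hochberg adjusted), and -0.99 with the series as a term (adjusted p = 0.0158 by edgeR).

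Mef2a, a MADS-box transcription factor, was at -0.45 on the log2 scale (adjusted p = 0.0963 by edgeR), with 140.7, 153.7 and 150.8 CPM in LC and 110.5, 109.4 and 106.7 CPM in CMNKO mice. Every CMNKO mouse lay below every LC mouse, as was the case for 12.3% of all genes, and with the series as a term Mef2a was at -0.37. Jarid2, a jumonji-family repressor, was at 0.39, the T-box factor Tbx20 at -0.34, and Tead1, a factor that binds MCAT motifs, at 0.29 (adjusted p = 0.166, 0.229 and 0.258 by edgeR). With the series as a term Jarid2 was at 0.30, Tbx20 at -0.11 and Tead1 at 0.14. The factors of the motifs in capitals above, Gata4 and Nkx2-5, were named for those motifs and not by the rule for naming genes. Gata4 had 69.9 ± 12.5 CPM in LC and 78.7 ± 4.13 CPM in CMNKO mice, and Nkx2-5 had 30.3 ± 10.2 and 32.95 ± 7.30 CPM (SD, n = 3 and 3 mice). Their log2 fold changes were 0.17 and 0.12 (adjusted p = 0.526 and 0.791 by edgeR), and -0.086 and -0.345 with the series as a term.

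Beside the ligands, 10 other genes were tested from a list read for the fetal program. The list also holds Myh6 and Atp2a2, which are genes of the adult ventricle and not fetal genes. Of the 10, 2 rose and 0 fell by edgeR, against 0.268% and 0.337% of all genes. Acta1, the skeletal α-actin, had 161.4, 37.6 and 191.7 CPM in LC mice 15, 25 and 26, and 660.6, 1386 and 810.8 CPM in CMNKO mice 16, 17 and 18. Its order of mice was close to that of Nppa, with LC 25 lowest, LC 26 highest among LC mice and CMNKO 17 highest of all. Acta2, the smooth muscle actin, had 138.2, 70.5 and 171.9 CPM in LC and 432.0, 390.8 and 698.3 CPM in CMNKO mice. Log2 fold changes were 2.87 for Acta1 and 2.00 for Acta2 (adjusted p = 0.0279 and 0.0195 by edgeR), and with the series as a term 2.56 and 1.88, where neither passed (adjusted p = 0.250 and 0.181 by edgeR). In that fit 0 of the 10 genes rose and 1 fell, namely Myh7, the β-myosin heavy chain, named after its value was seen, which moved from 0.021 with genotype alone to -1.0 (adjusted p = 0.986 and 0.0258 by edgeR). For Myh7, LC mice 15, 25 and 26 had 2136, 501.8 and 510.6 CPM. CMNKO mice 16, 17 and 18 had 965.5, 1034 and 1194 CPM, above LC 25 and LC 26. The fall of Myh7 with the series as a term thus rests on LC 15 alone. With genotype as the only term, Xirp2, Ankrd1, Atp2a2 and Myh6 had the next smallest p. They stood at 0.37, 0.57, 0.26 and 0.32 (adjusted p = 0.217 to 0.486 by edgeR). The 10 smooth muscle and pericyte markers other than Acta2 summed to 627.7 to 848.4 CPM in LC mice and 731.6 to 780.2 CPM in CMNKO mice, so that the groups overlapped. Abcc9, Smtn and Rgs5 made up most of this sum, and Abcc9 and Smtn were lower in CMNKO mice (log2 fold change -0.27 and -0.45). Of all 11 markers, Acta2 included, 9 were higher and 2 lower, with a median of 0.62, and 0.12 with the series as a term. An unadjusted p under 0.05 by edgeR was found in 8 of the 11, against 18.9% of all genes. The part of these cells in the Acta2 level was not tested.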

How the data were processed

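RNA-seq of left ventricles of 3 LC and 3 CMNKO mice was analysed. Ventricles had been kept in RNAlater, and TRIzol and TruSeq technology served for RNA and libraries. Clean reads were mapped by the authors to mouse build mm8, as the submitters' processing notes name it, and raw whole-number counts for each gene symbol and mouse were deposited. Aligner, counting method and strand setting were not given in the sources used here. Columns of the authors' own comparison were also deposited, namely a normalized signal per group, log2 fold changes and FDR-adjusted p-values, and none was used. The number of per-sample columns left unused was 0.

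The deposited counts entered edgeR 4.0.16 under R 4.3.3 (filterByExpr, TMM, quasi-likelihood test, genotype as the only term), with Benjamini-Hochberg adjustment over all 13040 genes and a threshold of 0.05. CPM are TMM-normalized, and log2 CPM used a prior count of 2. Ratios used counts plus 0.5 and an exact permutation test. Depth was 6319488 to 8752609 counts per mouse, and count intervals cover counting error only. P-values of the main fit set the genotype difference against the spread between the mice of a genotype. In LC mice this spread also holds the split between the library series. Alternatives were other scalings and filters, DESeq2 1.42.0, limma-voom (limma 3.58.1), the library series as a term or the first series alone, CMNKO 18 alone and each mouse left out. The procedure was tested on simulated data. Promoters came from RefSeq (GRCm38.p6) and transcripts from GENCODE vM21, whose build differs from that of the counts.

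The 8 genes, the lists and the tests were chosen with earlier results of these data known. Named were all 8 genes, Ncor1, in the pathway, regulator and fetal lists every gene past the threshold and the 4 with the next smallest p, and the 5 genes nearest to each ligand, and some of the items these rules take are not reported here.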

Additional observations from a re-analysis of the deposited data

How the results depend on the processing

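Of 127 values for the 8 genes under the alternatives, 113 kept their direction and their side of the threshold, 6 newly passed it and 8 turned sign. Nppa was higher in CMNKO mice under all 16 alternatives (log2 fold change 0.89 to 1.49) and passed under 5, namely DESeq2 (adjusted p = 1.2e-04), limma-voom (0.0497), the first series alone (0.0239), without LC 15 (0.0118) and without LC 26 (0.0401), so that its call by edgeR depends on these settings. Npr2 stayed above 0 (0.10 to 0.32) under all 16 and Mme below 0 (-0.78 to -0.14) under the 15 that could test it, since it was below a mean of 5 CPM in the remaining one. The direction turned for Nppb (1.03 with the series term, 1.03 in the first series alone, -1.03 to 0.50 with 1 mouse left out), Corin (0.0056 in CMNKO 18 alone), Furin (-0.048 with the series term and in the first series alone), Npr1 (-0.033 to 0.28 with 1 mouse left out), Npr3 (-0.014 in CMNKO 18 alone) and the log2 ratio of Npr3 to Npr1 (-0.026 to 0.82 with 1 mouse left out). The cause was not tested.

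Of the 8 genes 0 passed by edgeR, against 1 by DESeq2, by limma-voom and in the first series alone, and 0 to 2 with 1 mouse left out. The 79 genes called over the whole table became 367 by DESeq2 (adjusted p missing for 1016 genes), 128 after upper-quartile scaling, 44 on library totals, 22 with the series term and 51 in the first series alone. CMNKO 18 alone gave 0 calls by edgeR, with 792 genes at an unadjusted p below 0.05, and leaving out 1 mouse gave 0 to 2624. Library totals alone moved the median of all genes to 0.12 on the log2 scale and the calls from 35 higher and 44 lower to 24 and 20. With all mice 1 pathway gene and 1 regulator passed, and dropping 1 mouse gave 0 to 8 and 0 to 6. The 8 and the 6 came without LC 15, where 19.4% of all genes were called. Without CMNKO 16, 17 or 18, in fits that called 0, 0 and 11 genes of the whole table, 0 pathway genes passed. The call of Pde1c was thus lost each time. Of the regulators 0, 0 and 1 passed in these fits. Ncor1 was at -1.25 in CMNKO 18 alone (adjusted p = 0.515 by edgeR) and at -1.15 to -0.99 with 1 mouse left out, where the call was lost without CMNKO 16, 17 or 18 (adjusted p = 0.0862, 0.0759 and 0.0536 by edgeR). In fits that leave 1 mouse in a group, that mouse is assumed to vary like the other group. No paired analysis was possible because no mouse number occurs in both genotypes. Mme rested on 17 to 42 counts per mouse, the fewest of the 8 genes.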
